A study of Mus musculus with 4 samples.

Results

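The 8 genes Apoe, Clu, Apod, Lcat, Abca1, Abcg1, Lrp1 and Lpl carry lipid between cells or take it up. They were chosen by name, 1 row each, among the 32287 gene features measured in both conditions, and all 8 were found. Mouse spinal cord cells were profiled by single-cell RNA sequencing after a pool of enhancer viruses had been given. The assay was built to read the activity of injury-responsive enhancers, and only the gene counts of the same cells are used here. Each condition had 1 gene expression library.

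All mice carried an inducible Cre recombinase under Cx30, an astrocyte gap junction gene, and a tdTomato reporter. All were 8 to 12 weeks old and had received tamoxifen and, by vein, the pool of adeno-associated viruses. The injured group had a contusion of the thoracic cord 14 days after the virus and was sampled 3 days after the injury. The uninjured group had no injury. A segment of 5 mm was taken at the lesion or at the same level, and tdTomato-positive cells were sorted. Of the cells kept after the sort, 48.1% of the injured and 74.2% of the uninjured library were astrocyte-like. The rest of the uninjured library included an unnamed cluster (15.3%) and neuron-like cells (5.7%). Their summed astrocyte markers were near the astrocyte-like level (105% and 87.4%). Cells of other classes had also passed the sort in both libraries. Animals of both sexes, 1 or 2 per sex, were pooled in each condition, so no spread between animals could be measured and no test between conditions was possible. All intervals below are 95% intervals that cover counting error only. Cells can be scored for sex by Xist and Y-linked genes. The injured library held 250 female and 315 male cells by this score. The uninjured library held 2 female and 2770 male cells although both sexes are stated, so values of male cells are given where they bear on a result. The libraries shared 7 cell barcodes.

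Cells were grouped without the 8 genes and without the lipid gene lists described below. The injured library gave 879 cells with 8499672 gene UMIs (counted molecules), the uninjured library 4159 cells with 15543460. Classes were named from marker genes. Astrocyte-like cells numbered 423 and 3085, and all 9 astrocyte markers were found in both. Microglia-like cells numbered 126 and 31, ependymal-like cells 143 and 31, endothelial-like cells 70 and 26 and fibroblast-like cells 43 and 95, injured first. OPC-like cells (oligodendrocyte precursors) are described in the injured library (46 cells) and neuron-like cells in the uninjured library (237 cells). The neuron-like cells also held all 9 astrocyte markers, at a summed 13946 CPM, against 1279 CPM for the 6 neuron markers. Their name follows the marker score and does not set them apart from astrocytes. A cluster with astrocyte and neuron genes stayed unnamed (637 uninjured cells). Groups of fewer than 20 cells are not described. Levels are UMIs of a gene per 1000000 gene UMIs (CPM), summed over the cells of a class. They are 3′ counts, so levels are compared between cells, not between genes.

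Lipid leaves cells mainly through ABC transporters, which load cholesterol and phospholipid onto apolipoproteins. In the nervous system apolipoprotein E is made largely by astrocytes, and by microglia once they are activated. LCAT esterifies the cholesterol on these particles, LRP1 takes up particles that carry apolipoprotein E, and lipoprotein lipase releases fatty acids from them. Oxysterol-activated nuclear receptors (LXR) induce Abca1, Abcg1 and Apoe when cells are loaded with cholesterol.

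The genes lie on 7 chromosomes (GENCODE M21, GRCm38). Apoe is at chr7:19696109-19699188, Clu at chr14:65968483-65981547, Apod at chr16:31296192-31314808 and Lcat at chr8:105939551-105943382. Abca1 is at chr4:53030787-53159895, Abcg1 at chr17:31057675-31117988, Lrp1 at chr10:127538161-127621148 and Lpl at chr8:68880491-68907448. Abca1 is shown by its promoter because its level was higher in the injured library in 5 classes (values below) and because LXR is known to act through a repeat in its promoter. The LXR type of repeat was searched as NGGTNA, 4 bases of any kind, and NGGTNA again, on both strands. The search covered 300 bases around 32851 RefSeq start sites (GRCm38.p6), 250 before and 50 after the start. The repeat was found in 0.718% of them. The table held 7 promoters of 5 of the genes (Apoe, Apod, Lcat, Abca1, Lrp1), and Abca1 was the gene with a match, on the strand opposite to the gene from base -67 to base -52. The 150 bases before the Abca1 start (chr4:53159896-53160045, minus strand) are given 5′ to 3′, with the match in capitals.
Abca1 promoter: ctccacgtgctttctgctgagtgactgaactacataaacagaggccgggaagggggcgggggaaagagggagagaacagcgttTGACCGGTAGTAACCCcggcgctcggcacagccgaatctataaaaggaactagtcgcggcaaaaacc
The match is a description of the letters. No binding was measured in these files.

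The levels had a different order over the classes for each gene. In the injured library 5 of the 8 genes were highest outside astrocyte-like cells. These were Apoe, Abca1, Abcg1 and Lpl in microglia-like cells and Apod in fibroblast-like cells. In the uninjured library 6 of the 8 were, with Clu highest in ependymal-like, Apod, Lrp1 and Lpl in fibroblast-like and Abca1 and Abcg1 in microglia-like cells. Lcat was the gene with its highest level in astrocyte-like cells in both libraries among the named classes. The background was 86.2% of 13375 genes in the injured and 87.5% of 13561 genes in the uninjured library (genes at 10 CPM or more in a class), which is above the share of the 8 genes.

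**Figure D1:**
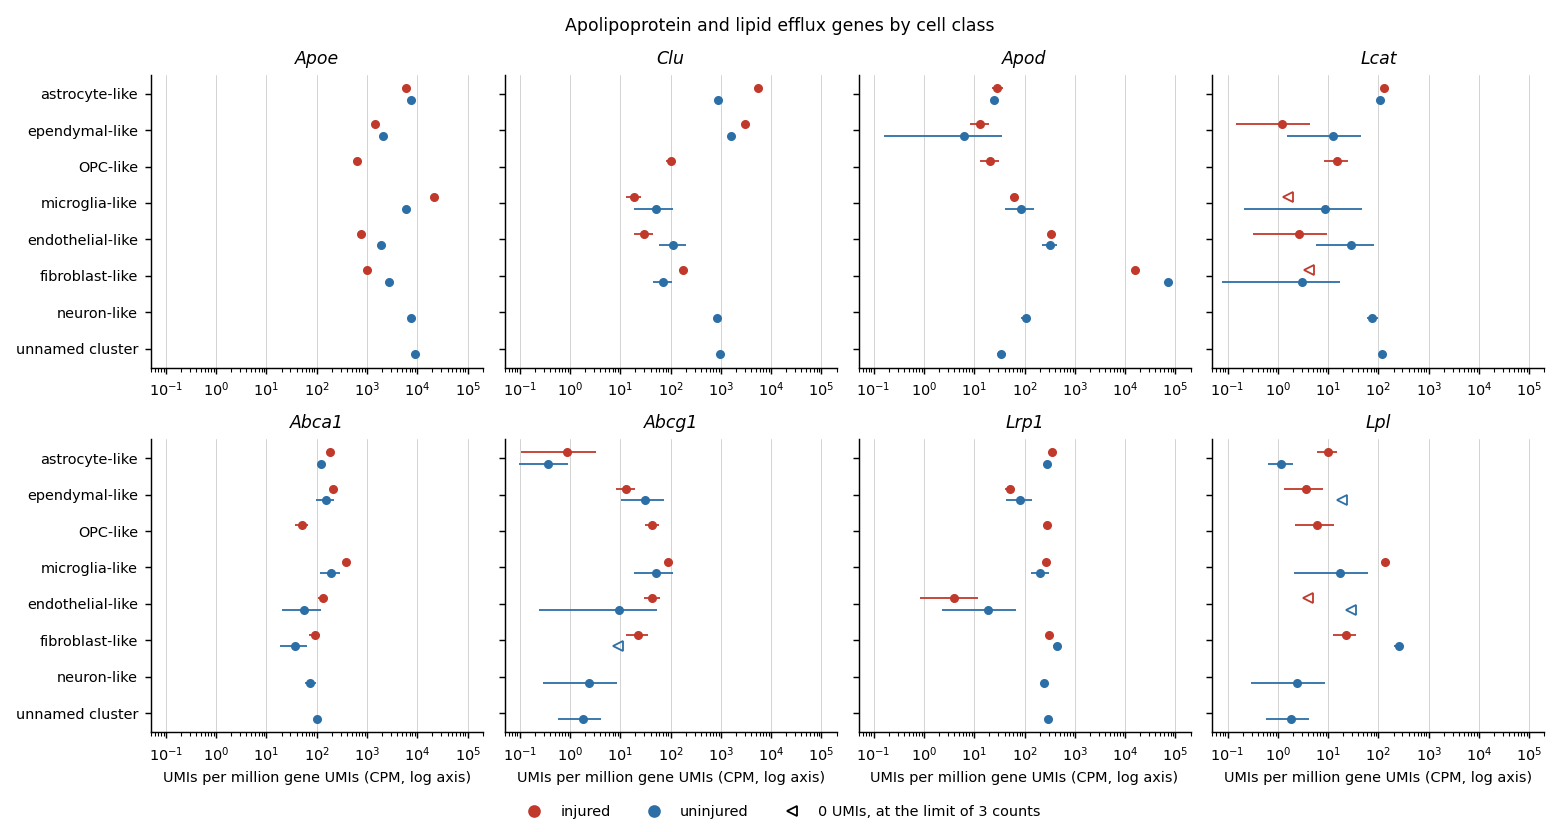
Level of each gene in each class of at least 20 cells, in CPM on a log axis, injured in red and uninjured in blue. Bars are exact Poisson 95% intervals and open triangles stand at 3 counts where no UMI was found. Apoe was highest in injured microglia-like cells at 21360 CPM, Apod in uninjured fibroblast-like cells at 72150 CPM, and Abcg1 was below 1 CPM in astrocyte-like cells of both libraries.

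Between conditions, Clu was the one gene of the 6 measurable in astrocyte-like cells that was at least 2-fold higher after injury, and none was at least 2-fold lower. Here 9945 genes had at least 10 CPM in a condition, of which 13.6% were at least 2-fold higher and 7.97% at least 2-fold lower in the injured library. Abcg1 and Lpl were under 10 CPM in both conditions. Lpl, at 9.77 CPM, was just below this limit. The median log2 ratio (1 CPM added to both levels) was 0.30 for the 6 genes and 0.01 for all 9945.

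Clu encodes clusterin (apolipoprotein J), a secreted chaperone that also carries lipid. Its level in astrocyte-like cells was 5372 CPM in the injured library (5277 to 5469, 12095 UMIs) and 864 CPM in the uninjured library (847 to 882, 9602 UMIs). The injured level was 6.22-fold higher (6.05 to 6.39), a log2 ratio of 2.63. Per cell, the median was 2748 CPM in injured and 683 CPM in uninjured astrocyte-like cells, and the upper quartile of the uninjured cells, 1250 CPM, lay below the injured median. When each cell was thinned to 1000 gene UMIs, Clu was seen in 73.2% of the injured (68.5 to 77.5%) and 51.7% of the uninjured cells (49.9 to 53.5%). Without thinning the shares were 82.7% and 79.8%, at median depths of 3527 and 3202 gene UMIs. Microglia-like cells, at median depths of 14070 and 3169, had a Clu UMI in 0.826% and 7.14% after thinning.

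The Clu difference was present in each astrocyte-like cluster that held at least 5 cells of both libraries. In the cluster led by Tgm1, Lcn2 and Gfap, with 333 of the injured cells, Clu was at 5833 CPM (5728 to 5939) against 1361 CPM (1128 to 1628) in its 16 uninjured cells. In the cluster led by Extl1 it was at 1154 CPM (937 to 1406, 22 cells) against 715 CPM (675 to 756, 574 cells). In the cluster led by Cldn10 it was at 4379 CPM (9 cells) against 1179 CPM (940 cells). In the cluster led by mitochondrial genes it was at 440 CPM (317 to 595, 55 cells) against 302 CPM (271 to 337, 542 cells). The injured cells of this cluster had 67.3% of their UMIs from mitochondrial genes, against 14.2% in the uninjured cells of that cluster. Astrocyte-like cells of the injured library with a UMI of Lcn2 or Timp1, genes of the acute injury response, had 6601 CPM of Clu (177 cells, median 4813 gene UMIs) and those without had 3649 CPM (246 cells, median 2566). Both levels were above the uninjured 864 CPM. Injured male cells had 5672 CPM (5526 to 5821) and injured female cells 6428 CPM (6235 to 6626), against 837 CPM in uninjured male cells.

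Outside astrocyte-like cells, Clu was high in ependymal-like cells, the ciliated lining of the central canal. It was at 2984 CPM (2902 to 3068) in injured and 1571 CPM (1382 to 1779) in uninjured ependymal-like cells, a 1.90-fold difference (1.67 to 2.17). In the uninjured library the ependymal-like level was 1.82-fold that of astrocyte-like cells (1.60 to 2.06), and in the injured library it was 0.555 of it (0.537 to 0.574). The order of these classes was thus different between the libraries. Injured microglia-like cells had 18.5 CPM and endothelial-like cells 29.4 CPM of Clu, which are 0.345% and 0.547% of the astrocyte-like level. The summed astrocyte markers in the same cells were at 0.410% and 0.792% of theirs. As ratios, the Clu intervals were 0.0024 to 0.0048 and 0.00343 to 0.00828, which include the marker shares. In the uninjured library Clu was at 5.94% in microglia-like and 13.1% in endothelial-like cells, with markers at 1.45% and 3.84%. These Clu values rest on 6 and 12 UMIs (ratios 0.0218 to 0.129 and 0.0677 to 0.229). The highest single marker there was at a ratio of 0.302 (Slc1a3) and 0.103 (Aldh1l1). The endothelial-like ratio of 0.259 (0.123 to 0.575, 22 and 12 UMIs) was 0.786 in male cells, with an interval that included 1 (0.141 to 7.96). In injured fibroblast-like cells 4 of 43 cells held 95.3% of the 129 Clu UMIs, and the direction of the difference from the uninjured library turned when the cells with the top 5% of doublet scores were left out (log2 ratio 1.34 with and -2.44 without them) and when no cell filter was used (-0.17).

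Apoe encodes apolipoprotein E, the main lipid carrier of the central nervous system. In astrocyte-like cells it was at 6012 CPM in the injured (5911 to 6114, 13535 UMIs) and 7584 CPM in the uninjured library (7533 to 7636, 84278 UMIs). The ratio was 0.793 (0.778 to 0.807), within 2-fold. The cells of the injured library were more uneven, with a median of 3494 CPM, quartiles of 1152 and 7147 CPM and 88.7% of cells with a UMI. In uninjured cells the median was 6603 CPM, the quartiles 3861 and 10296 CPM and the share 96.6%. The injured level was lower in the Lcn2-led cluster (6290 against 9267 CPM), in the Extl1-led cluster (2508 against 6319 CPM) and in the mitochondrial cluster (860 against 2479 CPM). It was higher in the Cldn10-led cluster (12906 CPM in 9 cells, against 10580 CPM in 940). Male cells alone had 6447 and 7415 CPM.

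In microglia-like cells Apoe was 3.55-fold higher in the injured library (3.3 to 3.83), at 21360 CPM (21152 to 21569, 40371 UMIs) against 6013 CPM (5576 to 6474, 703 UMIs). The injured level was also 3.55-fold that of injured astrocyte-like cells (3.48 to 3.62), while the uninjured level was 0.793 of that of uninjured astrocyte-like cells (0.735 to 0.854). The astrocyte markers in these cells were at 0.410% and 1.45% of the astrocyte-like level. The 2 libraries differed most in how Apoe was spread over the cells. The median microglia-like cell had 17012 CPM in the injured library, with quartiles of 5008 and 30131 CPM. In the uninjured library the median cell had 0 UMIs, and 3 of the 31 cells held 74.8% of the Apoe UMIs. After thinning to 1000 gene UMIs, 92.6% of injured and 32.1% of uninjured microglia-like cells had an Apoe UMI. Unthinned, the shares were 96.0% and 48.4%, at median depths of 14070 and 3169 gene UMIs. Endothelial-like cells, at 7972 and 3138, had thinned shares of 41.8% and 92.3%, so the uninjured microglia-like share was below the endothelial-like one.

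Mrc1 is a receptor of border-associated macrophages. The 6 uninjured microglia-like cells with an Mrc1 UMI held 501 of the 703 Apoe UMIs, at 23831 CPM (21790 to 26012). The 25 cells without Mrc1 were at 2106 CPM (1826 to 2418). P2ry12 and Tmem119 mark resident microglia and Ccr2 marks recruited monocytes. Cells with a P2ry12 or Tmem119 UMI and none of Mrc1 or Ccr2, a split chosen after the values were seen, held 6 Apoe UMIs in 21 uninjured cells, or 78.8 CPM (28.9 to 171). The 79 such cells of the injured library held 25388 Apoe UMIs, or 19055 CPM (18822 to 19291), 242-fold more (111 to 659). The 22 uninjured cells with P2ry12 or Tmem119, whatever their Mrc1 or Ccr2, held 184 Apoe UMIs. In cells chosen that way the ratio was 8.82 (7.63 to 10.3), and in cells without Mrc1 it was 9.6 (8.36 to 11.1). The 242-fold value thus depends on which uninjured cells the split left out, which its interval does not cover. Median depth was 16368 gene UMIs in the 79 injured and 3711 in the 21 uninjured cells, so a marker is more easily missed in the uninjured cells. In the injured library Apoe was at 30343 CPM in the 16 cells with Mrc1, at 23003 CPM in the 22 cells with Ccr2, and at 20222 CPM in the 110 cells without Mrc1. Injured male and female microglia-like cells had 23137 and 17625 CPM. Of the 7 monocyte and macrophage markers, all 7 were found in the injured cells (summed level 9741 CPM) and 5 in the uninjured cells (3626 CPM, Ccr2 and Ly6c2 at 0). Lyz2 made up most of that sum, at 9015 and 2651 CPM, while Mrc1 was 3.34-fold lower after injury (2.41 to 4.54) and Ms4a7 was at 206 and 214 CPM. The 10 microglia markers summed to 23943 and 17935 CPM, but P2ry12 was 2.69-fold (2.11 to 3.39), Tmem119 2.64-fold (1.90 to 3.6) and Cx3cr1 1.82-fold (1.51 to 2.19) lower after injury. In the same cells the 6 neutrophil markers summed to 556 CPM (4 found) and 214 CPM (1 found). The part of recruited cells in the Apoe difference was not tested beyond these splits.

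**Figure D2:**
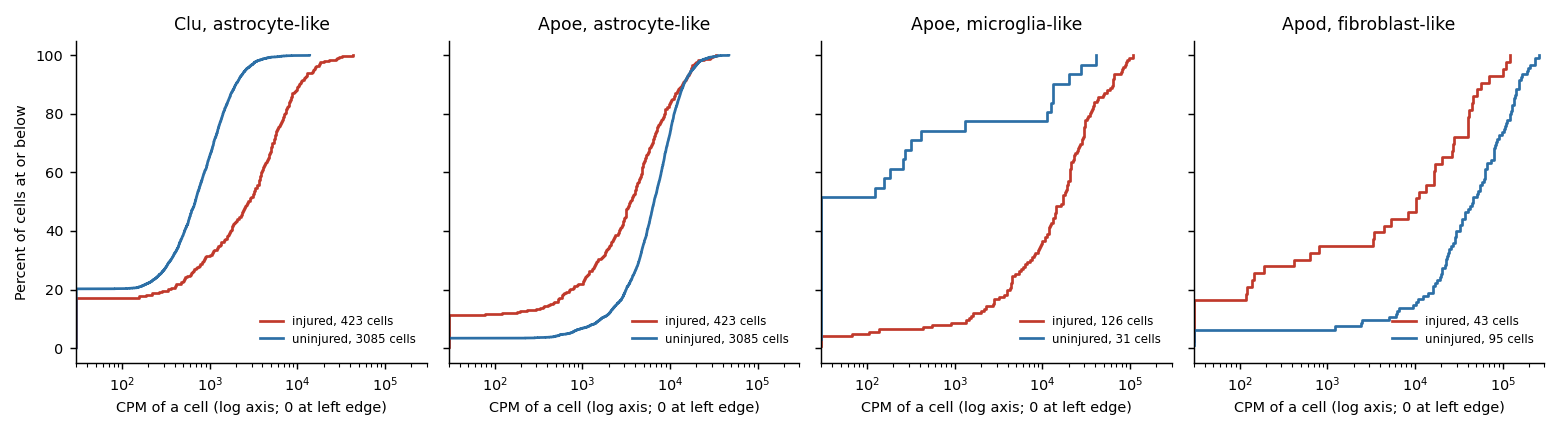
Percent of cells at or below a level, in CPM of the single cell on a log axis with cells at 0 on the left edge, injured in red and uninjured in blue. Clu is shifted to higher levels over most injured astrocyte-like cells, with medians of 2748 and 683 CPM. An Apoe UMI is present in 48.4% of uninjured microglia-like cells, while the injured median is 17012 CPM, and Apod in fibroblast-like cells is spread over a wide range in both libraries.

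Apoe was found in every class described, and endothelial-like, fibroblast-like and ependymal-like cells had less of it after injury. Endothelial-like cells had 762 CPM after injury and 1934 CPM without, 2.54-fold lower (2.15 to 2.98). Fibroblast-like cells had 976 and 2767 CPM, 2.84-fold lower (2.57 to 3.13), which became 1.80-fold in male cells, 4.87-fold within the cluster shared by both libraries and 9.76-fold without a cell filter. Ependymal-like cells had 1413 and 2088 CPM, 1.48-fold lower (1.31 to 1.66), and injured OPC-like cells had 623 CPM. These levels moved in the same direction as the astrocyte markers in the same cells. As a share of the astrocyte-like level, the markers were at 0.792% in injured and 3.84% in uninjured endothelial-like cells, where Apoe was at 12.7% and 25.5%. In fibroblast-like cells the markers were at 8.61% and 14.6% and Apoe at 16.2% and 36.5%. In ependymal-like cells the markers were at 15.9% and 19.2% and Apoe at 23.5% and 27.5%. Single markers differed widely from these sums. Their ratios to the astrocyte-like level ran from 0.00478 to 1.62 in injured and 0.0397 to 2.62 in uninjured fibroblast-like cells (Slc1a3 highest). In ependymal-like cells they ran from 0.0207 to 1.69 and 0.0495 to 2.31 (Sox9 highest), so the sum does not stand for each marker. The part of astrocyte RNA in these differences was not tested. Apoe was above the summed marker share in all of these groups, most of all in microglia-like and endothelial-like cells. In neuron-like cells and the unnamed cluster, Apoe (98.6% and 120%), Clu (95.8% and 109%) and the markers (87.4% and 105%) all stood near the astrocyte-like level.

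**Figure D3:**
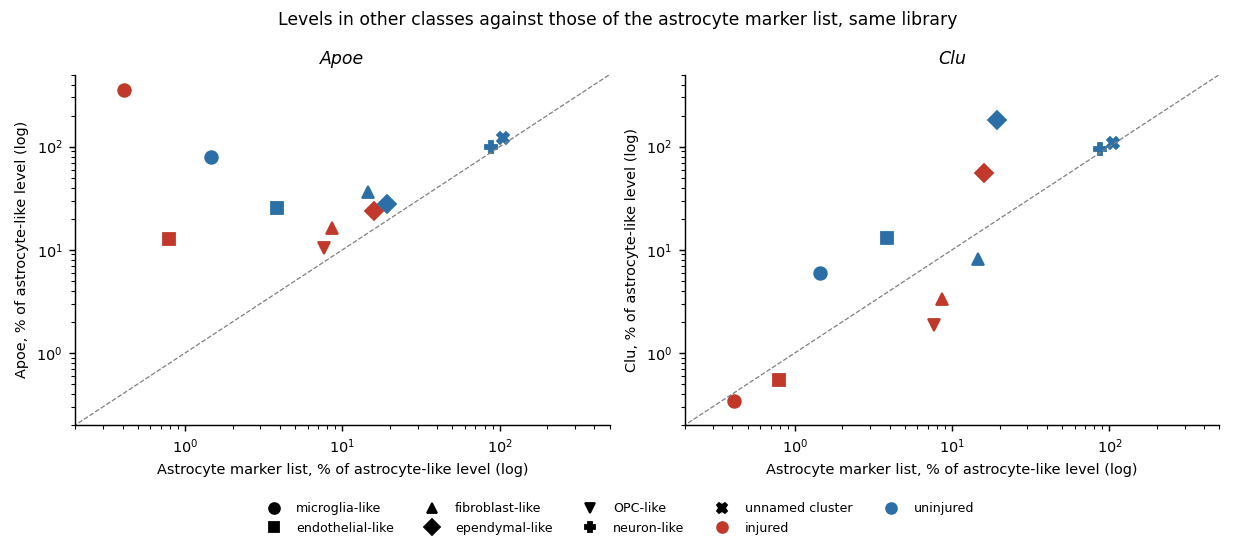
Level of Apoe (left) and Clu (right) in other classes, in percent of the astrocyte-like level of the same library, against the same percentage for 9 summed astrocyte markers, both on log axes. The dashed line marks equal percentages. For Apoe, injured microglia-like cells (355%) and uninjured microglia-like cells (79.3%) lie far above the line. For Clu, the ependymal-like cells (55.5% and 182%) lie above it, as do uninjured microglia-like (5.94%, 6 UMIs) and endothelial-like cells (13.1%, 12 UMIs).

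Apod encodes apolipoprotein D, a small lipid-binding protein (lipocalin). It was a gene of fibroblast-like cells, at 15872 CPM in the injured (15582 to 16165, 11449 UMIs) and 72150 CPM in the uninjured library (71234 to 73074, 23699 UMIs). The injured level was 4.55-fold lower (4.45 to 4.65), and 20.6-fold lower when no cell filter was used, with 81 injured cells in the class. A finer clustering (Leiden resolution 1.0) divided the fibroblast-like cells. A cluster led by Smoc2, Ebf2 and Myoc held 48 uninjured and 0 injured cells, with 103143 CPM of Apod (101733 to 104567) in all 48 cells. The other cluster held 43 injured and 47 uninjured cells. Within it the levels were 15872 and 25128 CPM (24275 to 26003), 1.58-fold lower after injury (1.52 to 1.65). The difference between the libraries was smaller within the shared cluster than over the class.

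In fibroblast-like cells of the injured library Apod per cell ranged widely, with quartiles of 166 and 40373 CPM around a median of 10239 CPM. The uninjured median was 45572 CPM. Endothelial-like cells had the second highest level, 335 CPM (295 to 379) in the injured and 321 CPM (222 to 448) in the uninjured library, a ratio of 1.04 (0.728 to 1.54). That is 11.6-fold (8.81 to 15.5) and 13.2-fold (8.92 to 18.8) the level of astrocyte-like cells, which had 28.9 CPM (22.3 to 36.8) and 24.4 CPM (21.6 to 27.5). Of the endothelial-like Apod UMIs, 7 of 70 injured cells held 58.6% and 3 of 26 uninjured cells held 73.5%. The astrocyte-like ratio was 1.18 (0.889 to 1.56), an interval that includes no difference. Microglia-like cells had 61.4 and 85.5 CPM, and in the injured ones 13 of 126 cells held 87.9% of the Apod UMIs. In the injured library the levels of astrocyte-like, OPC-like (20.6 CPM) and ependymal-like cells (13.1 CPM) were neighbours whose ratios included 1.

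Lcat encodes the enzyme that esterifies cholesterol on lipoprotein particles. It was at 127 CPM (113 to 143, 287 UMIs) in injured and 110 CPM (103 to 116, 1217 UMIs) in uninjured astrocyte-like cells, a ratio of 1.16 (1.02 to 1.32). A Lcat UMI was present in 28.1% and 26.8% of the cells, and after thinning in 9.02% and 10.4%. Microglia-like cells had a thinned share of 3.57% in the uninjured library (1 UMI). No UMI was found in 126 injured microglia-like cells or in 43 injured fibroblast-like cells, and with 3 cells taken as the limit up to 2.38% and 6.98% of these cells could hold one. The astrocyte-like level was at least 80.3-fold that of microglia-like and at least 30.7-fold that of fibroblast-like cells, with 3 counts taken for none. Injured ependymal-like and endothelial-like cells had 2 UMIs each, 107-fold (29.4 to 890) and 47.7-fold (13.1 to 396) below astrocyte-like cells. Injured OPC-like cells had 14.7 CPM (8.24 to 24.3), 8.66-fold below (5.16 to 15.7). In the uninjured library endothelial-like cells held 3 Lcat UMIs, ependymal-like cells 2 and microglia-like and fibroblast-like cells 1 each.

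Abca1 encodes the transporter that passes cholesterol to apolipoproteins poor in lipid. It was higher in the injured library in all 5 classes compared, except that in fibroblast-like cells the direction turned when no cell filter was used (log2 ratio 1.30 with and -0.27 without it). In astrocyte-like cells it was at 184 CPM (167 to 202, 414 UMIs) and 124 CPM (118 to 131, 1379 UMIs), a ratio of 1.48 (1.32 to 1.65). In microglia-like cells it was at 380 CPM (353 to 409) and 188 CPM (118 to 285, 22 UMIs), a ratio of 2.02 (1.32 to 3.24). The ratio was 2.50 in fibroblast-like cells (1.34 to 5.09, with 91.5 and 36.5 CPM) and 2.31 in endothelial-like cells (1.02 to 6.45, with 131 and 56.6 CPM), or 1.94 in male cells (0.76 to 6.32). In ependymal-like cells, with 215 and 151 CPM, the ratio of 1.42 had an interval that included 1 (0.937 to 2.24). Within the fibroblast-like cluster shared by both libraries it was 1.49 (0.715 to 3.6), an interval that included 1. Injured female astrocyte-like cells had 263 CPM (225 to 306) and injured male ones 184 CPM (158 to 212), against 128 CPM in uninjured male cells. In the uninjured library the levels of microglia-like, ependymal-like and astrocyte-like cells were neighbours whose ratios included 1.

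Abcg1, the transporter that passes cholesterol on to lipid-bearing particles, was almost absent from astrocyte-like cells. They held 2 UMIs in the injured library (0.888 CPM, 0.108 to 3.21) and 4 in the uninjured library (0.360 CPM, 0.0981 to 0.922), in 423 and 3085 cells. Microglia-like cells held 169 UMIs in the injured library (89.4 CPM, 76.4 to 104) and 6 in the uninjured library (51.3 CPM, 18.8 to 112), with a ratio of 1.74 (0.784 to 4.82). The level of injured microglia-like cells was 101-fold that of astrocyte-like cells (27.4 to 838). OPC-like cells (43.2 CPM) and endothelial-like cells (42.7 CPM) of the injured library followed and did not differ from each other beyond counting error. Injured ependymal-like cells had 13.1 CPM. In fibroblast-like cells 16 UMIs were found in the injured (22.2 CPM) and 0 in the uninjured library, at least 2.43-fold higher after injury. Within the fibroblast-like cluster shared by both libraries the value with 3 counts was 0.965 and the lower limit 0.698, so a difference was not detectable there at this depth.

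Lrp1 encodes a large endocytic receptor for particles with apolipoprotein E. In astrocyte-like cells it was at 359 CPM (335 to 385, 809 UMIs) after injury and 279 CPM (269 to 289, 3096 UMIs) without, a ratio of 1.29 (1.19 to 1.39). Shares of cells with a UMI were 57.4% and 58.0%, and 24.2% and 25.6% after thinning, where endothelial-like cells had 1.49% and 0 of 26 cells (up to 11.5% with 3 cells taken as the limit). Fibroblast-like cells had 313 CPM (274 to 357) and 441 CPM (373 to 519), a ratio of 0.710 (0.574 to 0.880) in the other direction, which was 1.03 in male cells and 0.396 without a cell filter. Microglia-like cells had 267 and 205 CPM, and injured OPC-like cells 283 CPM. In the injured library the levels of astrocyte-like, fibroblast-like, OPC-like and microglia-like cells formed a row in which each neighbour's ratio included 1. Ependymal-like cells were lower at 51.1 and 82.0 CPM. Endothelial-like cells had 3 and 2 UMIs, and the injured astrocyte-like level was 89.7-fold theirs (30.6 to 436).

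Lpl encodes lipoprotein lipase, which hydrolyses the triglyceride of lipoproteins. It was highest in fibroblast-like cells of the uninjured library and in microglia-like cells of the injured library. Fibroblast-like cells had 253 CPM (201 to 313, 83 UMIs) without and 22.2 CPM (12.7 to 36.0, 16 UMIs) after injury, 11.4-fold lower (6.62 to 20.8). The Smoc2-led cluster without injured cells had 359 CPM (280 to 452). Within the shared fibroblast-like cluster the levels were 22.2 and 92.0 CPM, 4.15-fold lower after injury (1.79 to 9.34, 16 and 12 UMIs). Microglia-like cells had 136 CPM after injury (120 to 154, 257 UMIs) and 17.1 CPM without (2.07 to 61.8, 2 UMIs), a ratio of 7.95 (2.18 to 66.0). In the injured microglia-like cells Lpl was at 162 CPM (142 to 184) in the 93 cells with P2ry12 or Tmem119 and at 29.5 CPM (14.7 to 52.8) in the 33 cells without. It was at 14.1 CPM in the 16 cells with Mrc1 and 29.2 CPM in the 22 cells with Ccr2. For Apoe the order was the reverse, with 20141 CPM in the 93 cells and 26323 CPM in the 33 cells.

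In astrocyte-like cells Lpl was scarce in both libraries. It had 22 UMIs in 19 of 423 injured cells (9.77 CPM, 6.12 to 14.8) and 13 UMIs in 13 of 3085 uninjured cells (1.17 CPM, 0.623 to 2.00), a ratio of 8.35 (4.03 to 18.0). Of the 22 UMIs, 19 came from 127 male cells, with at most 3 UMIs in a cell, and 0 from 76 female cells, which allows up to 4.59 CPM in the latter. Uninjured male cells had 9 UMIs (1.06 CPM). The level of injured male cells, 18.9 CPM (11.4 to 29.4), is thus 4.1-fold that of female cells with 3 counts taken for none. The number of animals per sex was 1 or 2. Endothelial-like cells had 0 UMIs in both libraries, in 70 and 26 cells, which allows up to 4.01 and 28.3 CPM.

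**Figure D4:**
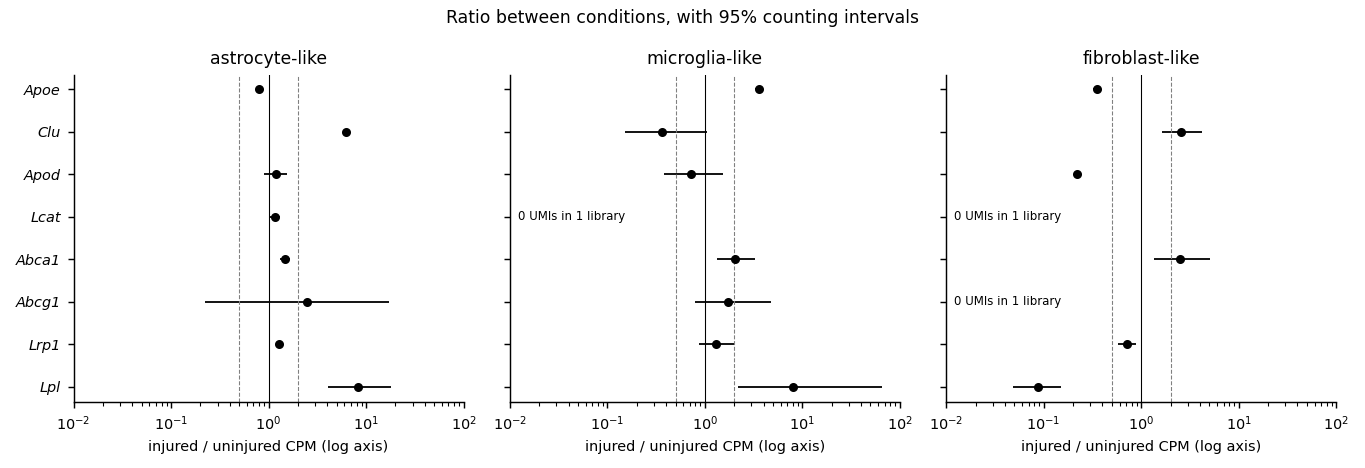
Ratio of the injured to the uninjured level of each gene in 3 classes, on a log axis, with exact 95% counting intervals. The solid line marks no difference and the dashed lines 2-fold. Points more than 2-fold higher include Clu (6.22) and Lpl (8.35) in astrocyte-like cells and Apoe (3.55) and Lpl (7.95) in microglia-like cells. Points more than 2-fold lower include Apod (0.22) and Lpl (0.0878) in fibroblast-like cells.

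In microglia-like cells 7 of the 8 genes reached 50 CPM in a condition, the limit used in the smaller classes. Of these, 3 were at least 2-fold higher after injury (Apoe, Abca1 and Lpl) and 1 lower (Clu). The Clu ratio, 0.361 from 35 and 6 UMIs, had an interval that included 1 (0.15 to 1.05), and Abca1 was 1.98-fold when cells below 1000 gene UMIs were left out. The background there was 11.1% of 4230 genes higher and 23.7% lower. In fibroblast-like cells 2 of 6 were higher (Clu and Abca1) and 3 lower (Apoe, Apod and Lpl), where 12.8% of 4355 genes were higher and 12.8% lower. The directions of Clu (log2 ratio -2.44 to 2.52) and Abca1 (-0.27 to 2.06) turned under other settings. Apod was 1.58-fold lower within the cluster shared by both libraries. In endothelial-like cells 1 of 4 was higher (Abca1) and 2 lower (Apoe and Clu), where 7.06% of 4405 genes were higher and 11.4% lower. In male cells the endothelial-like log2 ratios of Abca1 (0.95) and Clu (-0.33) were within 2-fold. In ependymal-like cells 0 of 4 passed 2-fold in either direction, where 6.41% of 4899 genes were higher and 11.4% lower. All comparisons share the same pair of libraries.

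The other genes of lipid transport were followed in 4 lists, of which 59 genes are reported and 31 of these reached 10 CPM in astrocyte-like cells. Of these 31, 3 were at least 2-fold higher after injury, 2 at least 2-fold lower and 26 were within 2-fold, with a median log2 ratio of 0.08. Among 13 measured genes of LXR and sterol handling 0 were higher and 1 was lower, Scarb1, a receptor for high-density lipoprotein (5.77 and 18.1 CPM, log2 ratio -1.49). Srebf1, the LXR target that drives fatty acid synthesis, was at 94.6 and 87.8 CPM (log2 ratio 0.11). Apart from Scarb1, the list ran from Mylip at 8.44 and 12.4 CPM (log2 ratio -0.51) to Npc2 at 307 and 157 CPM. Npc2, with a log2 ratio of 0.96, was just under 2-fold. The 8 lipoprotein receptors and uptake genes reported were within 2-fold, with a median log2 ratio of -0.12. Of 14 other apolipoproteins Apoc1 alone reached the limit, at 23.1 and 15.4 CPM. Srebf1, Mylip, Npc2, Apoc1 and Plin2 were named after their values were seen.

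The list of lipase partners, fatty acid binding proteins and lipid droplet genes held the 3 genes that were higher. Of its 9 measured genes 3 were higher and 1 lower, with a median log2 ratio of 0.72, where over all genes 13.6% were higher and 7.97% lower with a median of 0.01. Fabp7, a fatty acid binding protein of radial glia and astrocytes, was at 592 and 138 CPM (log2 ratio 2.09). Angptl4, a secreted inhibitor of lipoprotein lipase, was at 27.1 and 5.85 CPM (log2 ratio 2.04). Plin2, a coat protein of lipid droplets, was at 111 and 43.5 CPM (log2 ratio 1.34). Lipe, hormone-sensitive lipase, was lower at 8.44 and 21.1 CPM (log2 ratio -1.22).

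**Figure D5:**
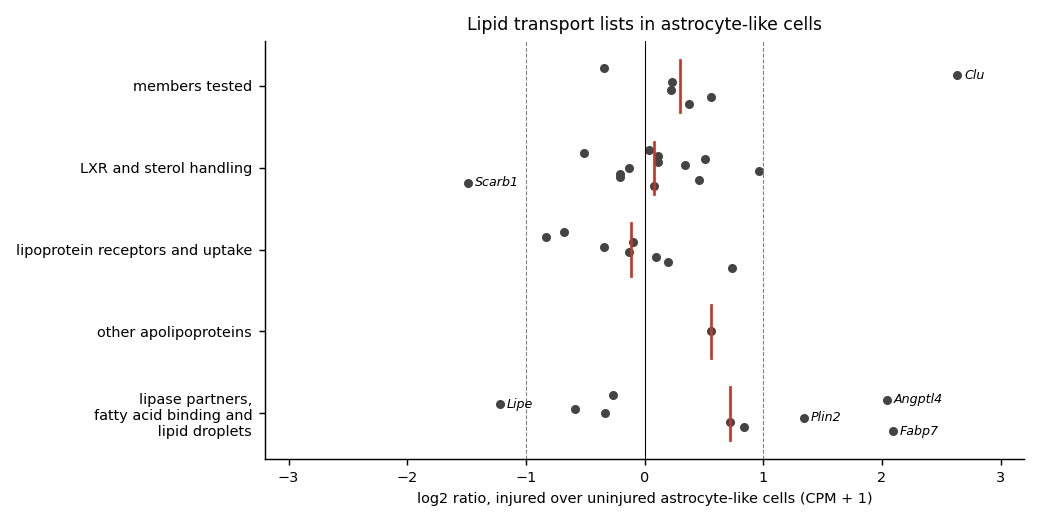
Log2 ratio of injured to uninjured astrocyte-like cells for the 6 measured genes of the set and the 31 reported and measured genes of 4 lipid lists, 1 point per gene, with the median of each list as a red bar. Dashed lines mark 2-fold. Clu at 2.63, Fabp7 at 2.09 and Angptl4 at 2.04 lie highest and Scarb1 at -1.49 lowest.

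In microglia-like cells 18 of the 59 genes reached 50 CPM, of which 3 were higher and 3 lower (median log2 ratio 0.48), where 11.1% of all genes were higher and 23.7% lower. The genes named in this paragraph were chosen after their values were seen. Soat1, which esterifies cholesterol for storage, was at 219 and 85.5 CPM. Apoc2, the cofactor of lipoprotein lipase, was at 411 and 137 CPM, and Apoc1 at 51.3 CPM with 97 UMIs against 0 UMIs, at least 2.00-fold higher. Fabp5 (779 and 2241 CPM), Cd36 (16.9 and 222 CPM) and Mgll (6.88 and 68.4 CPM) were lower after injury.

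The genes most like each of the 8 were sought over the 13 groups of class and condition, by Pearson's r of log2(CPM + 1) among 8784 genes. These values are descriptions over groups that share libraries. Apoe was most like Pnpla7 (r = 0.955), Cst3 (0.886) and Slc23a2 (0.885). Clu was most like Mt1 (0.955), Prdx6 (0.934) and Dok5 (0.93), Apod was most like Gm6209 (0.935), Podn (0.934) and Nid1 (0.933), and Lcat was most like Chst10 (0.951), Bcan (0.925) and Lifr (0.922). Abca1 had the least close partners, Mapkapk3 (0.855), Cyb561a3 (0.823) and Atxn7l1 (0.802). Abcg1 was most like Mgat4a (0.929), Fam89b (0.926) and Tes (0.920), Lrp1 was most like Celf2 (0.947), Col27a1 (0.938) and Etv1 (0.93), and Lpl was most like Hk2 (0.918), Tgfbi (0.909) and Trf (0.906). Among the 8 genes themselves the highest r was 0.61 (Lrp1 and Lpl) and the lowest -0.62 (Lcat and Abcg1). The nearest genes were the best of 8784, so their r cannot be set against that of the pairs among the 8.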

How the data were processed

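For each condition the authors deposited raw counts, as UMIs per gene and cell barcode. The submitters' processing notes name Cell Ranger 8.0.1 and mm10, while the file headers name 7.1.0. Barcode libraries were not used here. The 8 genes and the lipid lists were chosen with earlier results of these data known, and 1 gene of the lists is not reported here or counted in them.

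The cell filter (over 500 and under 50000 gene UMIs) removed 40 injured cells. Clusters came from scanpy 1.11.5 and igraph 0.11.9 in Python 3.11.15, with a scale of 10000, a log transform, 2000 variable genes, 15 components, 15 neighbours and resolution 0.5, leaving out the 8 genes and the lists. A cluster took the class with the highest marker score above 0.2, given at least 3 markers in 10% of its cells and no other class with more markers among its top 10 genes. Of 13 clusters 12 were named. Doublets were not removed and free RNA was not subtracted.

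UMIs were summed per class and condition. Intervals are exact Poisson (sums), Clopper-Pearson (shares) and conditional binomial (ratios), each at 95%. A sum of 0 was set to 3 counts for fold values and limits, which are not 95% bounds. Log2 ratios have 1 CPM added. Thinning to 1000 gene UMIs left out 35 injured and 67 uninjured astrocyte-like cells. The ratios were tested on simulated counts with known folds, which held counting error only and no spread between cells or animals. Named were the 8 genes, the 3 genes most like each, and in each list the 2 highest and 2 lowest past 2-fold in astrocyte-like cells. Alternatives changed resolution, clustering genes, cell filters, cell choice, doublets, weighting, centring, pseudocount and the floor. Splits of microglia-like and fibroblast-like cells, the unnamed cluster as astrocyte-like and leaving out the mitochondrial cluster were added after seeing the data.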

Additional observations from a re-analysis of the deposited data

Results flagged for a closer look

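In 4 cases the direction of the change with injury differed between astrocyte-like cells and another class, with both counting intervals clear of 1 and more than 3 UMIs in every sum. Lcat in endothelial-like cells, with 2 and 3 UMIs, was below that number (ratio 0.0944, 0.00788 to 0.824). With 1 library per condition the difference between the classes was not tested. Apoe was at a ratio of 3.55 in microglia-like and 0.793 in astrocyte-like cells. Clu was at a ratio of 0.259 in endothelial-like cells (22 and 12 UMIs) and 6.22 in astrocyte-like cells, and the endothelial-like value was 0.786 in male cells, with an interval that included 1. Lrp1 was at a ratio of 0.710 in fibroblast-like (1.03 in male cells) and 1.29 in astrocyte-like cells. Lpl was at a ratio of 0.0878 in fibroblast-like and 8.35 in astrocyte-like cells. The astrocyte markers in endothelial-like cells were at 0.792% of the astrocyte-like level in the injured and 3.84% in the uninjured library, beside the Clu value there, and their part in it was not tested.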

How the results depend on the processing

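No paired analysis was possible because no condition had more than 1 gene expression library. The count of genes at least 2-fold higher in injured astrocyte-like cells was 1 (Clu), and it was 1 under 7 of 14 alternatives. It was 2 under resolution 1.0, the 8 genes and lists kept for clustering, Aldh1l1-positive cells, male cells, removal of the top 5% of Scrublet scores, genes with any UMI, and, added after seeing the data, without the mitochondrial cluster. In each of these the second gene was Lpl, which stood at 9.77 CPM, just under the limit of 10. The count lower was 0 under all 14. The counts highest outside astrocyte-like cells stayed at 5 to 6 (injured) and 6 to 7 (uninjured) under 9 alternatives. The log2 ratio of Clu ranged from 2.29 to 2.76 and that of Apoe from -0.52 to -0.11. Apod (-0.30 to 0.81), Lcat (-0.05 to 0.52) and Abcg1 (-0.14 to 1.44) changed sign under at least 1 alternative, and Lpl fell to 0.82 with a pseudocount of 10 CPM. The share of genes past 2-fold was 21.5%. It was 10.9% at resolution 1.0, where an injured cluster of 192 cells led by Tgm1 and Lcn2 lost its name. It was 12.4% with a pseudocount of 10 CPM, 27.1% for genes at 50 CPM or more and 29.2% for the mean over cells. In fibroblast-like cells the log2 ratio ranged from -2.44 to 2.52 for Clu, -0.27 to 2.06 for Abca1, -1.33 to 0.04 for Lrp1, -3.28 to -0.85 for Apoe and -4.36 to -1.79 for Apod, and in endothelial-like cells from -1.91 to -0.33 for Clu and 0.95 to 1.32 for Abca1. The cause was not tested. Depth limits Abcg1 and Lpl in astrocyte-like cells and all genes in the 31 microglia-like, 31 ependymal-like and 26 endothelial-like uninjured cells.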
